A study of Homo sapiens with 12 samples.

Results

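FSCN1 and a group of actin cytoskeleton genes were described in MDA-MB-231 and MDA-MB-468, established triple-negative breast cancer cell lines. The cells were with or without knockout (KO) of SMARCA4, the ATPase subunit of the SWI/SNF chromatin remodelling complex. The members were 10 listed symbols that build actin bundles, tether filaments to the membrane or drive contraction: FSCN1, EZR, MSN, RDX, ACTN1, ACTN4, TPM1, TPM2, MYL9 and TAGLN. Of these, 9 had a row among the 11529 genes of the deposited table, and TAGLN, which had none, was not analysed here. FSCN1 was chosen by its change on SMARCA4 KO in MDA-MB-468 cells, so its values in that contrast, and in any contrast that uses the same samples, are given as a description with no test. The other 8 genes, which are actin-binding genes and the myosin light chain gene MYL9, were listed with earlier results of these data known.

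RNA was sequenced from 12 samples in 4 groups of 3, which were MDA-MB-468 control, MDA-MB-468 KO, MDA-MB-231 control and MDA-MB-231 KO. Control cells carried the genotype label wild type, and KO cells were polyclonal pools made with a lentiCRISPR-v2 vector, a guide RNA against SMARCA4 exon 4 and puromycin selection. A pool can hold cells with and without the edit, so a higher level in each cell and a larger share of cells with a high level cannot be told apart in these bulk samples. The labels call the control samples both wild type and control, and the study's protein blots used parental cells as well as cells given a nontargeting CRISPR vector, so which of these the sequenced controls were cannot be told from the labels. Whether the 3 replicates of a group came from separate cultures is not given in the sources used here, so p-values measure the spread between these samples only. Values were log2(FPKM + 1), where FPKM counts fragments per kilobase of transcript, scaled to the mapped total, and read depth is unknown.

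SMARCA4 itself was lower in KO in each line, with a mean FPKM at 44.3% of the control in MDA-MB-468 (log2 fold change -1.16, limma, adjusted p = 0.0137). In MDA-MB-231 it was at 32.7% (log2 fold change -1.57, adjusted p = 0.00143). The lines carried different marker levels. EPCAM, an epithelial adhesion protein, ranged from 296.6 to 306.8 FPKM in MDA-MB-468 controls and from 12.4 to 16.7 in MDA-MB-231 controls. Vimentin (VIM), the mesenchymal intermediate filament protein, ranged from 2.04 to 3.66 and from 1219 to 1396 FPKM in the same groups. Of 7 smooth muscle and 7 fibroblast markers 0 had a row, of 5 leukocyte markers only CD14 had a row, and of 3 hormone and growth factor receptors only ERBB2 had a row.

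Actin filaments take their function from the proteins that bind them. Fascin, the product of FSCN1, packs filaments into the tight parallel bundles of filopodia and invasive protrusions, and alpha-actinins (ACTN1, ACTN4) cross-link the looser, contractile arrays of stress fibres. Ezrin, moesin and radixin (EZR, MSN, RDX), together the ERM family, tie filaments to the plasma membrane. Tropomyosins (TPM1, TPM2) run along the filament and set which other proteins can bind, and MYL9 is a regulatory light chain of myosin II, whose phosphorylation switches on contraction. In epithelial tumours, fascin is scarce in normal epithelium and is often found in invasive, basal-like cells.

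The genes lie on 9 different chromosomes, so none of them are neighbours. On GRCh37 with GENCODE release 44 mapped to it, FSCN1 spans chr7:5632447-5646286 on the plus strand and MYL9 spans chr20:35169900-35179850 on the plus strand. TPM1 spans chr15:63334819-63364114 on the plus strand, and TPM2 spans chr9:35681989-35690053 on the minus strand. ACTN1 spans chr14:69340845-69446157 on the minus strand, and ACTN4 spans chr19:39138289-39222229 on the plus strand. EZR spans chr6:159186773-159240400 on the minus strand, MSN spans chrX:64808257-64961793 on the plus strand, and RDX spans chr11:109735021-110167437 on the minus strand. The span of RDX in this annotation overlaps that of ZC3H12C, a gene of the opposite strand that also has a row. Exons were not compared, and the strand setting of the counting is not given in the sources used here. Whether their values share reads therefore cannot be told.

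Promoter sequence is shown for 3 genes whose KO change differed between the lines (TPM2, TPM1 and ACTN1) and for EZR, which did not pass that test and whose promoter carries matches to both of the motifs found. Of the 9 genes, 7 had an entry in the RefSeq promoter table of GRCh38.p14. FSCN1 and MYL9 had none. Each sequence is the 250 bases before the gene start, 5′ to 3′ on the gene's strand. Capitals mark matches to the motifs searched on both strands: the CArG box of serum response factor by its name, GGAATG for TEAD factors, TGANTCA for AP-1 and CANNTG for the E-box. No overlap between matches of different motifs was present in the 4 sequences printed.
TPM2, chr9:35690057-35690306, minus strand: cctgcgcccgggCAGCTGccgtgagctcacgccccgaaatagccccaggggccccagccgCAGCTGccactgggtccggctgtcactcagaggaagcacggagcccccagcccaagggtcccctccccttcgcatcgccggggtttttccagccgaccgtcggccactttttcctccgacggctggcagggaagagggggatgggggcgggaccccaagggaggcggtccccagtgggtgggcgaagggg
TPM1, chr15:63048239-63048488, plus strand: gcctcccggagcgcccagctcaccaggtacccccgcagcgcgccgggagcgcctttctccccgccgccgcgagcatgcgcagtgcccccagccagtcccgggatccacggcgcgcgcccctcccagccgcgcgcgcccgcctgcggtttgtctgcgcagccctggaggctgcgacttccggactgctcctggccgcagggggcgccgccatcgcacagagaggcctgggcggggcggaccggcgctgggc
ACTN1, chr14:68979303-68979552, minus strand: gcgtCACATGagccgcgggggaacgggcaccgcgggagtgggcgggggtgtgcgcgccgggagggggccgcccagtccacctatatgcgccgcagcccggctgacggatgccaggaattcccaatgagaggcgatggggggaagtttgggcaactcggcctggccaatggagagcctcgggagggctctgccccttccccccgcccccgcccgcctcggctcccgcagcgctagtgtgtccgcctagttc
EZR, chr6:158818236-158818485, minus strand: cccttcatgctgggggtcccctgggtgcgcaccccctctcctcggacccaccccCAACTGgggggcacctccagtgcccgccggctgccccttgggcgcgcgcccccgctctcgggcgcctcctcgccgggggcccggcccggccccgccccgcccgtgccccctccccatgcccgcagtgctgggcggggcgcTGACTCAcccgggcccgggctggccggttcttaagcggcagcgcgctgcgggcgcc

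The 4 promoters were rich in G and C, with 71.6% in TPM2, 78.4% in TPM1, 72.0% in ACTN1 and 80.8% in EZR, against a median of 58.0% over 35116 promoters of this length. No CArG box was found in any of the 7 promoters, against 1.16% of all promoters, and no GGAATG, against 11.9%. TGANTCA was found in EZR and ACTN4, 2 of 7, against 6.57% of all promoters. CANNTG was found in TPM2, ACTN1, EZR and MSN, 4 of 7, against 61.8% of all promoters, and in TPM2 it occurred in 2 places. These matches describe letters in this window only.

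FSCN1 was higher in MDA-MB-468 KO than in the controls and lay between them and MDA-MB-231. In the 3 MDA-MB-468 control samples its log2(FPKM + 1) values were 0.77, 1.14 and 1.34, and in the 3 KO samples 2.63, 3.31 and 3.49. In MDA-MB-231 they were 3.87, 3.87 and 3.93 in control and 3.72, 3.82 and 3.78 in KO. The MDA-MB-468 KO samples all lay above their controls and below every MDA-MB-231 sample, and replicate 1 was the lowest of the KO samples. As FPKM, the mean was 1.14 ± 0.42 (SD, n = 3) in MDA-MB-468 control, 8.10 ± 2.63 (SD, n = 3) in MDA-MB-468 KO, 13.8 ± 0.34 (SD, n = 3) in MDA-MB-231 control and 12.7 ± 0.44 (SD, n = 3) in MDA-MB-231 KO. The MDA-MB-468 KO mean was 708.7% of its control mean, and relative to MDA-MB-231 control it went from 8.28% to 58.7%.

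The fitted log2 fold change of FSCN1 in MDA-MB-468 was 2.06 ± 0.26 (SE), the value on which the gene was selected. It ranged from 1.89 to 2.32 when each of the 6 samples was left out in turn, and was 2.32 without KO replicate 1. Because control values were near 1 FPKM, the added constant of 1 lowers this fold change, which was 2.73 with a constant of 0.1. In MDA-MB-231, a contrast that played no part in the choice, FSCN1 differed by -0.12 ± 0.05 (SE). The KO samples lay below the controls, but the change did not pass the test (limma, Benjamini-Hochberg adjusted p = 0.155).

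**Figure D1:**
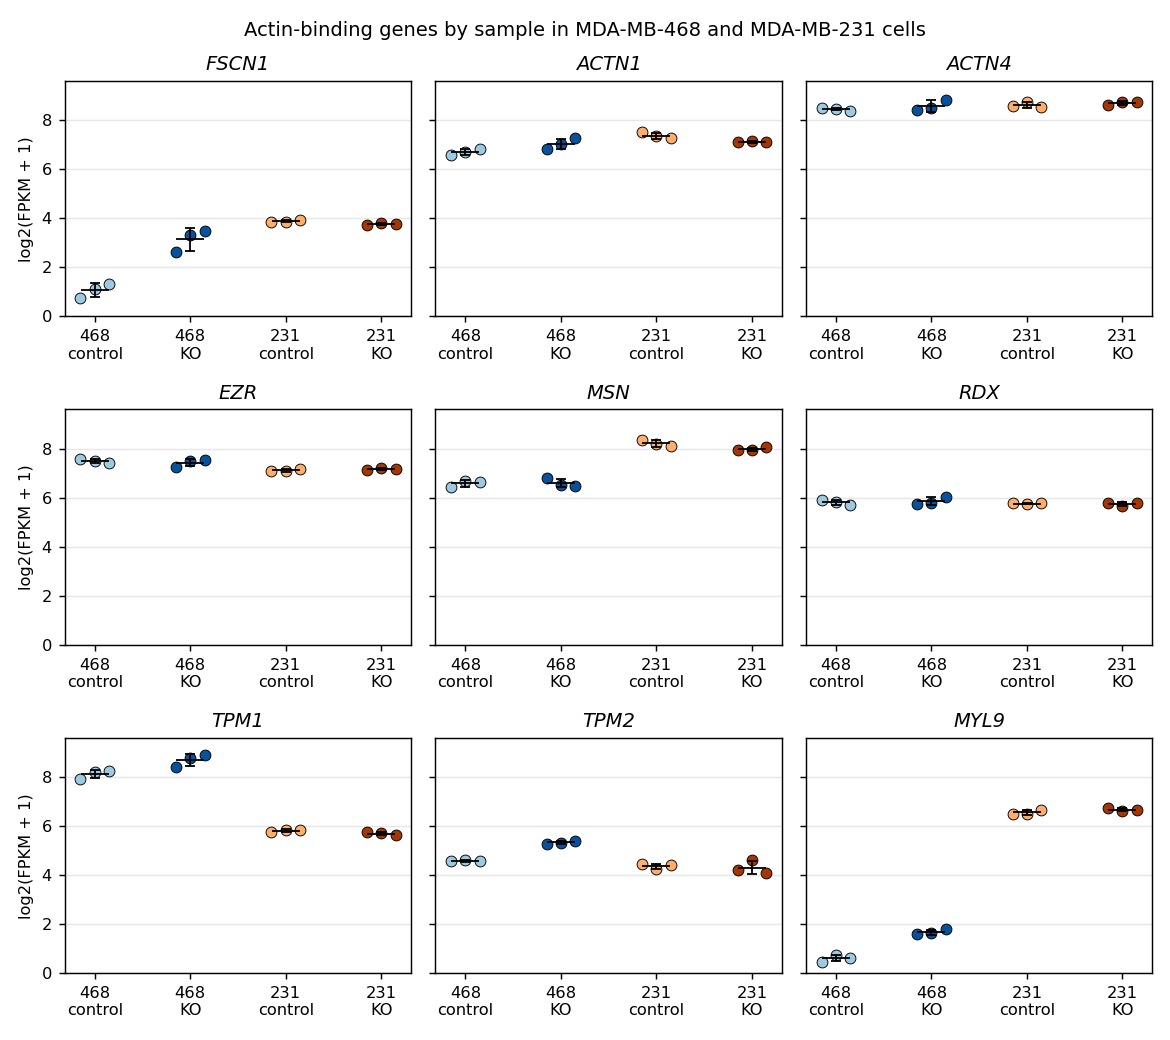
Levels of the 9 genes in each sample, as log2(FPKM + 1) on the vertical axis, with the 3 samples of each of the 4 groups as points along the horizontal axis and bars for the mean ± SD. FSCN1 rises from 0.77 to 1.34 in MDA-MB-468 control to 2.63 to 3.49 in KO, and MYL9 reaches 1.80 at most in MDA-MB-468 against 6.51 or more in MDA-MB-231.

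Among the other members, MYL9 and TPM2 were also higher on KO in MDA-MB-468. A gene was called when its adjusted p was under 0.05 over all 11529 genes and its absolute log2 fold change was over 0.5. Of the 8 members other than FSCN1, 2 were called, both higher in KO, against 2.14% of all genes called in either direction (247) and 1.33% called higher (153). The median log2 fold change of the 8 was 0.23, beside 0.02 over all genes. The KO samples lay above the controls without overlap for 4 of the 8 (MYL9, TPM2, TPM1 and ACTN1), as they did for 17.5% of all genes (2019).

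MYL9, the myosin regulatory light chain, had values of 0.49, 0.73 and 0.62 in MDA-MB-468 control and 1.59, 1.66 and 1.80 in KO. All KO samples were higher, yet the gene remained low in this line. Its log2 fold change was 1.07 ± 0.09 (SE; limma, adjusted p = 0.0145), and the mean went from 0.533 ± 0.13 FPKM (SD, n = 3) to 2.22 ± 0.23 (SD, n = 3). With a constant of 0.1 in place of 1 the log2 fold change was 1.89. In MDA-MB-231 the control values were 6.51, 6.52 and 6.67 and the KO values 6.73, 6.64 and 6.68, so the groups overlapped and the change of 0.12 ± 0.06 (SE) did not pass the test (adjusted p = 0.253). The MDA-MB-468 KO mean was 2.37% of the MDA-MB-231 control mean, compared with 0.568% in MDA-MB-468 control.

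TPM2, the beta-tropomyosin gene, had values of 4.57, 4.64 and 4.57 in MDA-MB-468 control and 5.28, 5.33 and 5.40 in KO. The spread within each group was small beside the gap between them, and the log2 fold change was 0.74 ± 0.05 (SE; limma, adjusted p = 0.0145). In MDA-MB-231 the values were 4.45, 4.26 and 4.42 in control and 4.22, 4.63 and 4.10 in KO. There the KO samples lay on both sides of the controls, and the change was -0.06 ± 0.15 (SE; adjusted p = 0.817).

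TPM1, the alpha-tropomyosin gene, was with ACTN4 among the 2 most abundant members in MDA-MB-468 KO. It had values of 7.94, 8.19 and 8.23 in MDA-MB-468 control and 8.41, 8.80 and 8.89 in KO. KO replicate 1 was again the lowest of its group. The log2 fold change of 0.57 ± 0.15 (SE) missed the threshold (adjusted p = 0.0897). It passed when samples were blocked by replicate number (0.57, adjusted p = 0.0473) and it also passed without KO replicate 1 (0.72, adjusted p = 0.0378). The sample descriptions carry another number that pairs the MDA-MB-468 samples differently, and with that number as the block it did not pass (0.77, adjusted p = 0.131). In MDA-MB-231 the values were 5.75, 5.86 and 5.85 in control and 5.77, 5.71 and 5.63 in KO, a change of -0.12 ± 0.06 (SE; adjusted p = 0.213).

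The calls of MYL9 and TPM2 in MDA-MB-468 depended on single samples. Both stood without control replicate 1 (adjusted p = 0.0443 for each) and without KO replicate 1 (adjusted p = 0.0175 for MYL9 and 0.0154 for TPM2). They were lost without control replicate 2 or 3 and without KO replicate 2 or 3, where log2 fold changes ranged from 0.71 to 0.77 for TPM2 and from 1.02 to 1.13 for MYL9, with adjusted p from 0.0565 to 0.0748. Over the whole table limma called 0 genes without control replicate 2, where 2288 had an unadjusted p under 0.05, and 0 without KO replicate 2, where 2023 did. It also called 0 genes with the description number as the block, where 2477 had an unadjusted p under 0.05, with log2 fold changes of 0.76 for TPM2 (adjusted p = 0.130) and 1.12 for MYL9 (adjusted p = 0.127).

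Among the cross-linkers, ACTN1 moved in opposite directions in the 2 lines. Its values in MDA-MB-468 were 6.58, 6.72 and 6.83 in control and 6.83, 7.04 and 7.26 in KO, and the lowest KO sample exceeded the highest control only in the third decimal. In MDA-MB-231 they were 7.50, 7.35 and 7.27 in control and 7.10, 7.16 and 7.11 in KO, with the KO samples below the controls. Neither change was called, at 0.33 ± 0.13 (SE; adjusted p = 0.180) in MDA-MB-468 and at -0.25 ± 0.07 (SE; adjusted p = 0.0732) in the other line. ACTN4, the other non-muscle alpha-actinin, was among the 2 most abundant members in every group and overlapped between KO and control in both lines, with values from 8.39 to 8.50 in MDA-MB-468 control, 8.40 to 8.85 in MDA-MB-468 KO, 8.53 to 8.75 in MDA-MB-231 control and 8.61 to 8.75 in MDA-MB-231 KO.

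The ERM genes were not called in either line. EZR changed by -0.07 ± 0.09 (SE; adjusted p = 0.684) in MDA-MB-468 and by 0.06 ± 0.05 (SE; adjusted p = 0.426) in the other line. RDX changed by 0.05 ± 0.10 (SE; adjusted p = 0.798) and -0.01 ± 0.05 (SE; adjusted p = 0.929) in the same order. For MSN the MDA-MB-468 values were 6.44, 6.68 and 6.63 in control and 6.80, 6.53 and 6.48 in KO, which overlapped. In MDA-MB-231 the MSN values were 8.37, 8.20 and 8.10 in control and 7.94, 7.96 and 8.05 in KO. The KO samples lay below the controls there, and the change of -0.24 ± 0.08 (SE) did not pass the test (adjusted p = 0.109).

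In MDA-MB-231 as a whole, 0 of the 9 members were called, against 3.70% of all genes (426), and their median log2 fold change was -0.06 beside -0.01 over all genes. KO samples lay below the controls without overlap for 3 of the 9 (FSCN1, MSN and ACTN1), as they did for 19.4% of all genes (2236). The summed FPKM of 4 mesenchymal markers (VIM, ZEB1, AXL and FN1, out of 6 listed) also lay lower there, from 1605 to 1830 in control and from 1247 to 1361 in KO. VIM made up most of this sum, from 1219 to 1396 FPKM in control and from 937.3 to 1040 in KO. AXL and FN1 also lay below their controls without overlap, whereas ZEB1 overlapped between KO and control. In MDA-MB-468 the same sum was from 15.5 to 20.7 in control and from 15.3 to 20.8 in KO, whereas the sum of 9 epithelial markers was from 6389 to 6694 in control and from 7220 to 7884 in KO. Keratins made up most of that sum, and the markers did not move together. Keratin 8 (KRT8) was from 1585 to 1634 FPKM in control and from 2059 to 2377 in KO. KRT18 also lay above its controls (1087 to 1118 in control and 1193 to 1382 in KO), whereas KRT5, KRT7 and KRT19 overlapped. EPCAM was from 275.4 to 291.0 FPKM in KO, below its controls, as was ESRP1 (52.6 to 56.3 in control and 48.9 to 50.9 in KO), and CDH1 overlapped (39.4 to 51.8 in control and 36.8 to 39.6 in KO). The epithelial sum in MDA-MB-231 was from 958.7 to 1502 in control and from 1501 to 1666 in KO. The part of these marker levels in the values of the members was not tested.

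**Figure D2:**
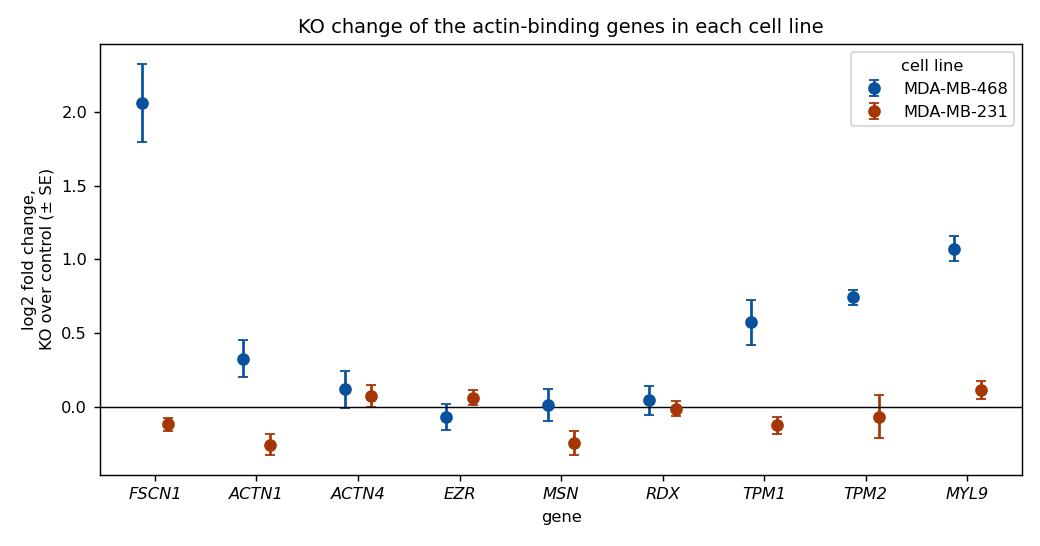
Log2 fold change of KO over control (vertical axis, log2(FPKM + 1) scale) for each of the 9 genes (horizontal axis), with points for the estimate and bars for ± SE in each of the 2 lines. FSCN1, MYL9, TPM2 and TPM1 sit at 2.06, 1.07, 0.74 and 0.57 in MDA-MB-468, while in MDA-MB-231 the 9 values lie between -0.25 and 0.12.

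The KO change differed between the lines for 4 of the 8 members other than FSCN1. This difference, tested as an interaction over all 12 samples and called at an adjusted p under 0.05, was higher in MDA-MB-468 for each of them. Over all genes 14.7% were called (1699) and 7.91% in the same direction (912), and the median difference was 0.42 for the 8 members beside 0.02 over all genes. The difference was 0.96 ± 0.11 (SE; adjusted p = 0.000615) for MYL9 and 0.81 ± 0.16 (SE; adjusted p = 0.00888) for TPM2. For TPM1 it was 0.70 ± 0.17 (SE; adjusted p = 0.0192), and for ACTN1 it was 0.58 ± 0.15 (SE; adjusted p = 0.0259). FSCN1 had a difference of 2.18 ± 0.27 (SE), given with no test.

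Differences of the other members were 0.26 for MSN, 0.06 for RDX, 0.04 for ACTN4 and -0.13 for EZR, none of which was called. The differences of MYL9 and TPM2 were called with each of the 12 samples left out in turn. That of TPM1 was not called without MDA-MB-468 KO replicate 2 (0.65, adjusted p = 0.0519). ACTN1 was not called after quantile normalization (0.49, adjusted p = 0.0617), or without replicate 1 of either control group, without replicate 1 or 2 of MDA-MB-231 KO, or without replicate 2 of MDA-MB-468 KO (0.52 to 0.60, adjusted p = 0.0506 to 0.0608).

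The control lines differed in most genes of the table. Between MDA-MB-468 control and MDA-MB-231 control, 64.1% of all genes were called (7395). Of the 8 members other than FSCN1, 4 were called, a share below that over all genes. MYL9 is counted among these 4, although its difference is a description only for the reason given below. MSN was lower in MDA-MB-468 by -1.64 ± 0.10 (SE; adjusted p = 1.75e-06) and ACTN1 by -0.66 ± 0.09 (SE; adjusted p = 0.000276). MYL9 was lower by -5.95 ± 0.09 (SE), at a mean of 0.533 FPKM in MDA-MB-468 control and 93.9 in MDA-MB-231 control. Genes with a mean or SD of FPKM under 1 were left out by the authors. MYL9 thus has a row through groups where it is higher, and its difference is a description only. TPM1 was higher in MDA-MB-468 by 2.30 ± 0.09 (SE; adjusted p = 1.71e-07). EZR and TPM2 were higher by 0.39 (adjusted p = 0.00128) and 0.22 (adjusted p = 0.0285), under the fold limit of the call. FSCN1, with no test, was lower by -2.81 ± 0.14 (SE). These baseline differences use the same MDA-MB-468 and MDA-MB-231 controls as the KO contrasts.

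The order of the levels, taken as mean FPKM, which is per length and so comparable between genes, differed between the lines. On KO, places changed only between genes that lay within their SDs in the KO group. In MDA-MB-468 control it was ACTN4 (349.7 FPKM), TPM1 (278.9), EZR (180.3), ACTN1 (104.1), MSN (95.4), RDX (55.2), TPM2 (23.2), FSCN1 (1.14) and MYL9 (0.533). ACTN1 and MSN in this order differed by less than the sum of their SDs. In MDA-MB-468 KO the order was the same except that TPM1 (418.5 FPKM) stood above ACTN4 (384.1), a gap within the SDs of 70.5 and 65.6. In MDA-MB-231 control MSN (299.0 FPKM) was second to ACTN4 (393.4), MYL9 (93.9) stood above TPM1 (55.6), and FSCN1 (13.8) was last. RDX (53.2 FPKM) and TPM1 did not differ beyond their SDs there. In MDA-MB-231 KO the same held for EZR (143.9 FPKM) and ACTN1 (138.4), and for RDX (52.8) and TPM1 (51.0).

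Within each gene family, the members made up different shares in the 2 lines. Of the summed FPKM of the ERM family, EZR made up 54.5% ± 2.2 (SD, n = 3) in MDA-MB-468 control and 28.2% ± 2.3 (SD, n = 3) in MDA-MB-231 control, while MSN made up 28.9% ± 2.8 and 61.0% ± 2.8. After KO, EZR was at 52.8% and 32.1% and MSN at 29.7% and 56.1% in the same lines, so EZR still made up the largest part in MDA-MB-468 and MSN in the other line. ACTN1 made up 23.0% ± 2.2 of the alpha-actinins in MDA-MB-468 control and 25.6% ± 1.0 in KO, against 29.6% ± 2.4 and 25.0% ± 0.8 in MDA-MB-231.

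Among the 4 tropomyosin genes, TPM1 made up 25.4% ± 2.0 (SD, n = 3) in MDA-MB-468 control and 33.7% ± 2.9 (SD, n = 3) in KO, with ranges of 23.2% to 27.2% and 30.5% to 36.0% that did not overlap. TPM2 made up 2.11% ± 0.05 and 3.20% ± 0.18 in the same groups. The share of TPM4 fell from 34.9% ± 1.7 to 28.6% ± 0.8, and that of TPM3 from 37.6% to 34.5%. A share falls when another gene of the family rises. The log2 fold change of TPM4 itself was -0.12 ± 0.06 (SE; limma, adjusted p = 0.288), and that of TPM3 was 0.04 ± 0.05 (SE; adjusted p = 0.629). TPM3 and TPM4 together made up most of the total in every group of both lines. In MDA-MB-231, TPM1 was at 6.22% in control and 6.55% in KO.

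MYL9 was a minor regulatory light chain in MDA-MB-468, at 0.0387% of the summed FPKM of MYL9, MYL12A and MYL12B in control and 0.153% in KO. It made up 12.5% in MDA-MB-231 control and 13.7% in KO. MYL12A and MYL12B are near-identical, so the split between them is uncertain. No test was made of these shares.

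**Figure D3:**
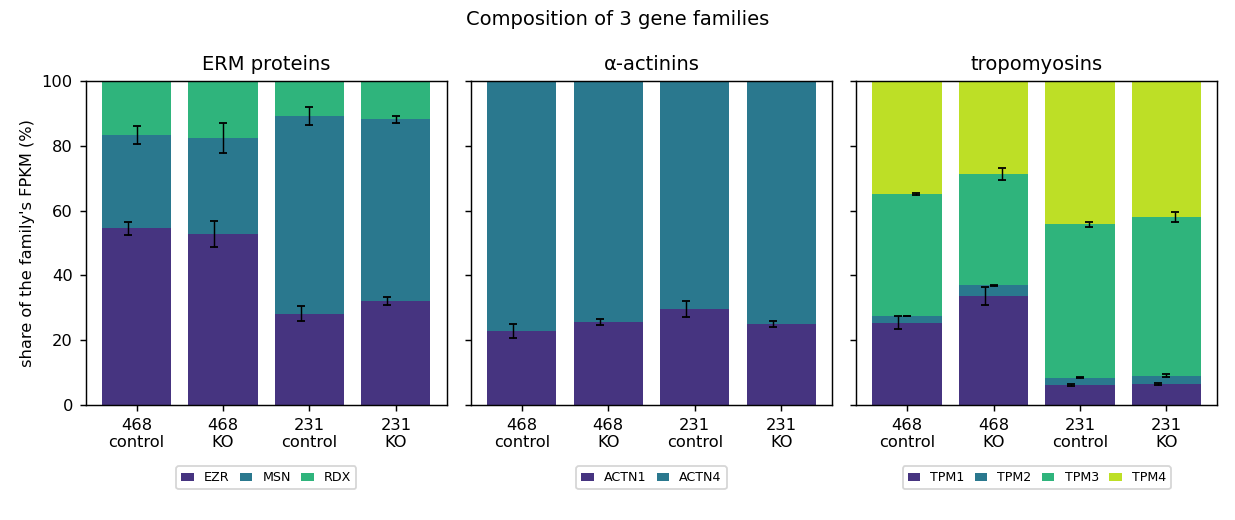
Share of each gene in the summed FPKM of its family (vertical axis, percent, stacked means of 3 samples with bars for ± SD) for the ERM family, the alpha-actinins and the tropomyosins in the 4 groups (horizontal axis). EZR is at 54.5% of the ERM total in MDA-MB-468 control against 28.2% in MDA-MB-231 control, and TPM1 goes from 25.4% to 33.7% of the tropomyosins on KO in MDA-MB-468.

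The genes whose values over the 12 samples were most like those of FSCN1, by Pearson's r over 11510 genes with a symbol, were ABCC4 (0.98), FAM96B (0.98), BICC1 (0.97), SGCE (0.97) and AFAP1L1 (0.97). AFAP1L1 encodes an actin filament-associated protein, SGCE a sarcoglycan, and ABCC4 a transporter. Each was lower in MDA-MB-468 control than in the other 3 groups, for example with group means of 1.71, 2.62, 3.17 and 3.25 on the log2 scale for ABCC4 in MDA-MB-468 control, MDA-MB-468 KO, MDA-MB-231 control and MDA-MB-231 KO. Among the members, ACTN1 (r = 0.89, rank 132) and MYL9 (r = 0.83, rank 587) were the most like FSCN1, and EZR (r = -0.72) was the least. These correlations are descriptions, since the 12 points share 4 groups and 2 cell lines.

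Other genes of the actin cytoskeleton were taken from 8 lists, which together named 156 genes other than the members, of which 135 had a row. In MDA-MB-468, 4 of the 135 were called (2.96%), a share near the 2.14% over all genes. These 4 are described singly. PDLIM1, a stress fibre LIM protein that binds alpha-actinin, rose by 0.94 ± 0.17 (SE; adjusted p = 0.0462), from 38.7, 48.6 and 53.6 FPKM in control to 74.4, 96.9 and 101.1 in KO. FHL2, a LIM-domain adaptor of focal adhesions, rose by 0.64 ± 0.07 (SE; adjusted p = 0.0206). ICAM1, an adhesion receptor whose tail binds ERM proteins, rose by 0.62 ± 0.09 (SE; adjusted p = 0.0354). CSRP2, a muscle-type LIM protein, fell by 0.78 ± 0.11 on the log2 scale (SE; adjusted p = 0.0334), from a level near 2 FPKM in control. When samples were blocked by replicate number, ICAM1 (adjusted p = 0.0741) and CSRP2 (adjusted p = 0.0528) were not called, and with the description number as the block none of the 4 was (adjusted p from 0.130 to 0.176).

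In MDA-MB-231, 4 of the 135 were called (2.96%), against 3.70% over all genes. NEXN, an actin-binding protein of stress fibres, fell by 0.94 ± 0.10 on the log2 scale (SE; adjusted p = 0.00972), from 11.9, 12.1 and 12.8 FPKM to 6.41, 4.97 and 6.39. The formin FMNL2, which elongates filaments, rose by 0.52 (adjusted p = 0.00972), the profilin PFN2 by 0.52 (adjusted p = 0.0162) and the LIM protein FHL1 by 0.57 (adjusted p = 0.0328). With samples blocked by replicate number, 0 genes were called in this line, at a smallest adjusted p of 0.0520, and 3126 had an unadjusted p under 0.05. Of the 8 list genes called in either line, the difference between the lines was called for 6, and not for ICAM1 (0.57, adjusted p = 0.106) or FHL1 (-0.45, adjusted p = 0.0782). The 8 were picked by a change in 1 line that is itself part of the difference, so this count is a description only.

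The KO change differed between the lines for 29 of the 135 genes (21.5%), higher in MDA-MB-468 for 21 and lower for 8, against 14.7% over all genes and 7.91% higher. The block by replicate number called 25, and 7 of the 29 were not among them, SMTN, ARPC2, ARPC5, ARPC5L, CTTN, EVL and PFN1 (adjusted p from 0.0508 to 0.0910). The median difference of the 135 was 0.07 beside 0.02 over all genes. Focal adhesion and stress fibre proteins contributed 8 of 28 and filament growth, capping and turnover 12 of 46, and the ERM family with its membrane partners contributed 1 of 15, EPB41. Myosin II and its control contributed 3 of 20, the cross-linkers 2 of 12, calponin and transgelin relatives 2 of 5, and actins, tropomyosins and tropomodulins 1 of 6. SRF and its actin-sensing coactivators contributed 0 of 3.

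Several of these genes had KO changes of opposite sign in the 2 lines, like ACTN1. They were picked by a called difference between the lines, which favours opposite signs, so the signs are a description only. PALLD, a stress fibre scaffold that binds alpha-actinin, was at 0.82 (adjusted p = 0.0588) in MDA-MB-468, while the MDA-MB-231 value was -0.44 (adjusted p = 0.0414, under the fold limit), a difference of 1.26 ± 0.19 (SE; adjusted p = 0.00227). Zyxin (ZYX), a focal adhesion protein, was at 0.60 (adjusted p = 0.0515) and -0.28 (adjusted p = 0.0516), a difference of 0.88 ± 0.14 (SE; adjusted p = 0.00236). For NEXN the difference was 1.41 ± 0.25 (SE; adjusted p = 0.00431), with -0.94 in MDA-MB-231. Its MDA-MB-468 change of 0.47 ± 0.22 (SE; adjusted p = 0.260) did not pass. The MDA-MB-468 groups overlapped, at means of 0.533 FPKM in control and 1.17 in KO. DAAM1, a formin, went the other way, at -0.50 (adjusted p = 0.110) and 0.47 (adjusted p = 0.0544), a difference of -0.97 ± 0.19 (SE; adjusted p = 0.00772). For ACTB, whose reads can be shared with the near-identical ACTG1, the difference was 0.49 ± 0.12 (SE; adjusted p = 0.0249).

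**Figure D4:**
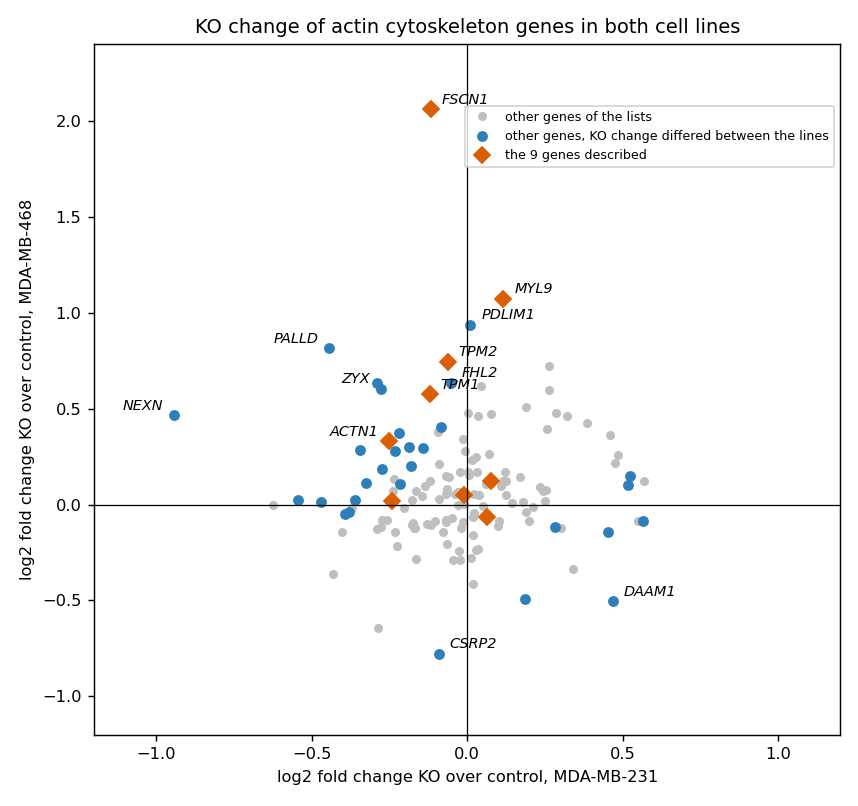
Log2 fold change of KO over control in MDA-MB-231 (horizontal axis) against MDA-MB-468 (vertical axis) for the 9 genes and the other 135 actin cytoskeleton genes, on the log2(FPKM + 1) scale. FSCN1 (2.06) and MYL9 (1.07) stand highest on the MDA-MB-468 axis, and PALLD, ZYX and ACTN1 lie to the upper left, above 0 in MDA-MB-468 and below 0 in MDA-MB-231.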

How the data were processed

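Gene expression was measured by RNA-seq (TruSeq Stranded mRNA) in 12 samples, 3 per group. The authors used Trimmomatic for trimming, STAR for alignment to hg19 and RSEM for FPKM, and left out genes whose mean or SD of FPKM was under 1. They deposited log2 values, log2(FPKM + 1), of 11529 genes, and the smallest average and SD of FPKM in the table were 1.07 and 1.00. A filter of this kind keeps low genes only where they vary. In 18 rows a date stood in place of the symbol. Depth is unknown, so no count-based interval was computed.

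Each cell line was fitted with limma 3.58.1 in R 4.3.3 (lmFit, eBayes without a trend), 3 KO against 3 control samples, with Benjamini-Hochberg adjustment over all genes. A call needed an absolute log2 fold change over 0.5 together with an adjusted p under 0.05. The interaction was fitted over 12 samples in 4 groups and called by adjusted p alone, and the controls of both lines were compared over 6 samples. The members and gene lists were chosen with earlier results of these data known. Genes named are the members, SMARCA4, list genes called in a KO contrast or the interaction, and the 5 genes most like FSCN1.

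Replicate numbers come from the sample titles. Deviations from the group mean correlated between same-numbered control and KO samples at 0.254, 0.161 and 0.119 in MDA-MB-468. In MDA-MB-231 the values were -0.054, 0.074 and -0.115. Unlike-numbered samples reached 0.131 in MDA-MB-468 (control 3 with KO 2) and 0.221 in MDA-MB-231 (control 1 with KO 3). These correlations cannot decide whether the numbers pair the samples, so the replicate block is an alternative in both lines. Another number in the sample descriptions gives the same pairs as the titles in MDA-MB-231 and pairs the MDA-MB-468 samples differently. By that number, MDA-MB-468 control 1 matches KO 2 (r = -0.232) and control 2 matches KO 3 (r = 0.029). The remaining MDA-MB-468 control and KO samples are unmatched. A block on this number in MDA-MB-468, with 1 residual degree of freedom, was added after seeing the data. Alternatives were a pseudocount of 0.1, a filter on low values (mean log2 value over 1), an intensity trend, 1 fit of all samples, 75th percentile scaling, quantile normalization, the replicate block, a limit of 1 on the log2 fold change and leaving out each sample. Promoters were taken from RefSeq (GRCh38.p14) and positions from GENCODE release 44 on GRCh37, with Python 3.11.15, numpy 2.4.6, pandas 2.3.3 and matplotlib 3.10.9.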

Additional observations from a re-analysis of the deposited data

Results flagged for a closer look

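The KO change of 4 of the members differed between the cell lines by the interaction test (limma, adjusted p under 0.05 over all genes). As the change in MDA-MB-468 minus that in MDA-MB-231 on the log2 scale, it was 0.58 for ACTN1, 0.70 for TPM1, 0.81 for TPM2 and 0.96 for MYL9. SMARCA4 differed as well, by 0.41, its decrease being larger in MDA-MB-231.

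Of the other actin cytoskeleton genes, 29 met the same test. With the replicate number as a block, SMTN, ARPC2, ARPC5, ARPC5L, CTTN, EVL and PFN1 did not (adjusted p from 0.0508 to 0.0910). Among focal adhesion and stress fibre proteins the difference was 1.41 for NEXN, 0.93 for PDLIM1, 0.93 for PDLIM7, 0.88 for ZYX, 0.69 for FHL2, 0.63 for CSRP1, 0.43 for TLN1 and -0.69 for CSRP2. Among genes of filament growth and turnover it was 0.59 for VASP, 0.49 for PFN1, 0.48 for DIAPH3, 0.38 for ARPC5L, 0.38 for CAP2, 0.34 for ARPC5 and 0.32 for ARPC2, and -0.97 for DAAM1, -0.65 for EVL, -0.41 for FMNL2, -0.40 for CTTN and -0.37 for PFN2. The cross-linkers PALLD and PLS3 differed by 1.26 and 0.51. ACTB, MYL6, RHOC, SMTN and CNN3 differed by 0.49, 0.46, 0.44, 0.56 and 0.34. EPB41 and CDC42BPA differed by -0.68 and -0.59.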

How the results depend on the processing

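Calls in MDA-MB-468 were sensitive to single samples. With each sample left out in turn, 0 to 474 genes were called there (247 with all samples), 0 to 3 members (2) and 0 to 15 list genes (4). The count was 0 without control replicate 2 (2288 genes at an unadjusted p under 0.05) and without KO replicate 2 (2023). In MDA-MB-231 the ranges were 99 to 311 genes (426) and 1 to 5 list genes (4), and for the difference between the lines 924 to 1897 genes (1699), 2 to 4 members (4) and 19 to 34 list genes (29). Filtering low values gave 424 genes and 10 list genes in MDA-MB-468 and 7 list genes in MDA-MB-231. The fit of all 12 samples gave 537 genes and 11 list genes in MDA-MB-468 and 9 list genes in MDA-MB-231. With a limit of 1 on the log2 fold change, 53 genes, 1 member and 0 list genes were called in MDA-MB-468, 85 genes and 0 list genes in MDA-MB-231, 217 genes, 0 members and 2 list genes for the difference, and 4150 genes and 55 list genes between the controls. The causes were not tested.

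The replicate block gave 241 calls in MDA-MB-468 (151 shared with the unblocked fit). In MDA-MB-231, where titles and descriptions number the samples alike, it gave 0 genes and 0 list genes. The smallest adjusted p there was 0.0520, with 3126 genes at an unadjusted p under 0.05. SMARCA4 itself was not called there under the block (limma, log2 fold change -1.57, adjusted p = 0.0520). The replicate block gave 1463 genes for the difference (1255 shared). Besides TPM1, ICAM1 and CSRP2 in MDA-MB-468, it changed no other call given in the text for that line. Among list genes, 25 had a called difference under the block, and 7 of the 29 called without it were lost. The block on the description number, added after seeing the data, gave 0 genes, 0 members and 0 list genes in MDA-MB-468, at a smallest adjusted p of 0.127 with 2477 genes at an unadjusted p under 0.05. It gave -0.058 for MSN and 2.45 for FSCN1, and which number pairs the samples cannot be told from the labels. Scaling to the 75th percentile turned the split of the difference from 912 higher and 787 lower to 671 and 941, and the calls of the members stood. Members whose sign changed had values near 0. Leaving out single samples gave -0.081 to 0.078 for MSN, -0.044 to 0.106 for RDX, -0.111 to 0.020 for EZR and -0.013 to 0.209 for ACTN4 in MDA-MB-468, -0.032 to 0.029 for RDX and -0.218 to 0.045 for TPM2 in MDA-MB-231, and -0.090 to 0.132 for ACTN4 and -0.035 to 0.115 for RDX in the difference. Quantile normalization gave -0.011 for MSN in MDA-MB-468, 0.0092 for RDX in MDA-MB-231 and -0.102 for the difference of ACTN4, and 75th percentile scaling gave 0.027 for RDX in MDA-MB-231 and -0.0039 for the difference of ACTN4. With a pseudocount of 0.1 FSCN1 was at 2.73 in MDA-MB-468, 2.85 for the difference and -3.54 between the controls. Without depth, the precision of FSCN1 and MYL9 in MDA-MB-468 control, near 1 FPKM or under, cannot be given.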
